A study of Homo sapiens with 23 samples.

Results

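The genes described here are 39 genes of the cell cycle and of DNA replication, taken by symbol from a fixed list of replication, G1/S and G2/M genes, and each was found once in all 23 tables among the 60564 genes listed. By role they fell into 7 regulators of the G1/S transition, 11 genes of replication licensing and the replication fork, 3 enzymes of deoxynucleotide supply, 7 genes of mitotic entry and 11 genes of chromosomes, the spindle and its checkpoint. The libraries came from the iGLC platform, a microfluidic chip in which a gut cell line and a liver cell line share circulating medium as a model of fatty liver disease. Caco-2 is an established line from a human colorectal tumour and HepG2 one from a human liver tumour, so every library of a line comes from 1 cell line and both are tumour cells that divide in culture. The cells were grown with 10% FBS and were treated for 1 day with 1 mM FFAs (palmitic and oleic acid at 1:2) or left without FFAs, which is called control. The labels give 0.5% FBS for the treatment medium, whereas the methods of the study describe serum-free medium with BSA. The methods also describe a starvation step in serum-free medium before the treatment. The paper reports reduced proliferation of both mono-cultured lines in the treatment medium, over a longer culture than here. It also reports no significant difference in proliferation between co-cultured and mono-cultured Caco-2 cells. After a longer treatment than here it reports higher cell cycle genes in co-cultured Caco-2 cells. With FFAs it then reports higher mitosis genes in Caco-2 cells and higher cell cycle genes in HepG2 cells. Each line was cultured alone (mono-culture) or joined to the other line (co-culture), which gave 4 groups a line with 3 libraries each, except co-cultured control Caco-2 cells with 2 libraries. The methods of the study speak of repeated independent experiments and of biological replicates, but no source ties a library to an experiment or pairs libraries across groups, so every p-value below measures the spread between these libraries, of which some may share an experiment.

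A dividing cell commits to a new round at the G1/S transition, when cyclin-dependent kinases inactivate the retinoblastoma protein and release the E2F transcription factors. E2F factors switch on the genes that license origins, build the replication fork and supply deoxynucleotides. A later programme driven by MuvB complexes and FOXM1 switches on the genes of mitosis. Because the transcripts follow the phase of the cycle, their level in a pool of cells depends both on the share of cells that divide and on the amount of each transcript per dividing cell, and in these bulk libraries fewer such cells and less RNA per cell cannot be told apart.

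Expression was measured by mRNA-seq of amplified cDNA, and the deposited values are TPM, a length-corrected share of the transcripts of a library, which sum to a fixed total in each library, so levels can be set side by side between genes. TPM keep no read counts, so the depth of each library is unknown. Between 19259 and 23689 genes were above 0 TPM, and the replicate 3 library was the one with the most such genes in each of the 7 groups that has a replicate 3. Markers of each line were read from lists of 8 genes. CDH17, an intestinal cadherin, was at 354 to 479.6 TPM in Caco-2 cells and at most 2.75 TPM in HepG2 cells. ALB, the gene of serum albumin, was at 20460.2 to 33859 TPM in HepG2 cells and 321 to 769 TPM in Caco-2 cells. Not every marker separated the lines so widely. CDX1 and KRT20 reached at most 0.18 and 2.13 TPM in Caco-2 cells, and VIL1 was at 153 to 244 TPM in HepG2 cells. AHSG and APOH were at 918 to 1554 and 532 to 916 TPM in Caco-2 cells. Every listed hepatocyte marker was still higher in each HepG2 library than in each Caco-2 library. All 39 genes were above 0 TPM in each of the 23 libraries and passed the filter for testing (1 TPM or more as the mean of some group). Their summed level was 3660.1 to 5266 TPM in the 11 Caco-2 libraries and 1953 to 4589.6 TPM in the 12 HepG2 libraries.

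The promoters of these genes are shown because the roles differ in the letters they carry. RefSeq promoter entries (GRCh38.p14, 250 bases before the start) were matched by symbol for 31 of the 39 genes. The E2F element, searched on both strands as TTTCCCGC, TTTCGCGC, TTTGCCGC or TTTGGCGC, was present in 11 of the 31 promoters (35.5%) against 2.79% of all 35116 promoters of that length. By role it was found in 4 of 5 G1/S promoters, 6 of 9 promoters of licensing and the fork, 1 of 3 of nucleotide supply, 0 of 6 of mitotic entry and 0 of 8 of the spindle and checkpoint. The CHR element TTTGAA, the letters that MuvB-type complexes read, was present in 9 of 31 (29.0%) against 13.3% of all promoters. Its distribution over the roles was the reverse, with 0 of 5, 0 of 9, 1 of 3, 3 of 6 and 5 of 8 promoters in the same order. The CCAAT box, read by NF-Y, was present in 24 of 31 (77.4%) against 32.0% of all promoters and occurred in all 5 roles. The 120 bases before the start follow, 5′ to 3′ on the strand of the gene, with these 3 motifs in capitals on either strand (in MKI67 a CHR element and a CCAAT box overlap by 1 base). The first 3 are promoters of the G1/S and replication genes E2F1 (chr20:33686386-33686505 on the minus strand), PCNA (chr20:5126623-5126742 on the minus strand) and CDT1 (chr16:88803669-88803788 on the plus strand). The last 4 are promoters of the mitotic genes CCNB2 (chr15:59105026-59105145 on the plus strand), PLK1 (chr16:23678769-23678888 on the plus strand), MKI67 (chr10:128126424-128126543 on the minus strand) and KIF11 (chr10:92593010-92593129 on the plus strand).
E2F1: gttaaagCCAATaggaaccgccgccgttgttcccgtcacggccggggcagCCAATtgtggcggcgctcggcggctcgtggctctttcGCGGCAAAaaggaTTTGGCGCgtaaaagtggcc
PCNA: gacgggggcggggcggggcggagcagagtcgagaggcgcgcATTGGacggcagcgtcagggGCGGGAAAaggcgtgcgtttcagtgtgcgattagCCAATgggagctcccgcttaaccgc
CDT1: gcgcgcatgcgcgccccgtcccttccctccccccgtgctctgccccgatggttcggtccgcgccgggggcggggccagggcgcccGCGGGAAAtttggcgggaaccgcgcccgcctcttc
CCNB2: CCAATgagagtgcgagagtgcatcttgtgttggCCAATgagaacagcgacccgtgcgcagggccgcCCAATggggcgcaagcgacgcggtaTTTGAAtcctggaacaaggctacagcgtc
PLK1: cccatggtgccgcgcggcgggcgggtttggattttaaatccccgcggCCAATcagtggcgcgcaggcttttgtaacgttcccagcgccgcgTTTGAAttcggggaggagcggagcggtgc
MKI67: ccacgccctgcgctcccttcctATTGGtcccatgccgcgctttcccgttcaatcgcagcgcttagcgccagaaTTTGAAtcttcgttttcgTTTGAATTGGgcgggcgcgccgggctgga
KIF11: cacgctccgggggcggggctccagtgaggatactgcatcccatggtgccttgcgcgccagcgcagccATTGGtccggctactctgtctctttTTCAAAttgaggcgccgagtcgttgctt
A match describes these letters only, and a promoter without a match lacks them in this window.

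In Caco-2 cells the most abundant members were CCNB1 (median 454 TPM), AURKA (275 TPM) and CDK1 (274 TPM), which act in G2 and mitosis, whereas in HepG2 cells they were PCNA (254 TPM), MCM3 (203 TPM) and TYMS (202 TPM), which act in S phase. The ranges of AURKA and CDK1 overlapped in Caco-2 cells, and those of PCNA, MCM3 and TYMS overlapped in HepG2 cells, so their order is not separated by the spread, while CCNB1 lay above AURKA and CDK1 in every Caco-2 library. The least abundant were E2F2 (3.25 TPM) and CCNE2 (6.39 TPM) in Caco-2 cells and CCNE2 (3.37 TPM) and E2F2 (3.86 TPM) in HepG2 cells. The highest library exceeded the lowest by a factor of 1.23 (FOXM1) to 2.16 (RRM2) in Caco-2 cells, with a median of 1.63 over the 39 genes. In HepG2 cells the factor was 1.70 (MCM3) to 6.13 (E2F2), with a median of 2.59.

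Among the G1/S regulators, the values are given by library for 5 genes, with coordinates on GRCh38 from GENCODE v44 and the replicates of each group in their numbered order. E2F1 (ENSG00000101412, chromosome 20, 33675477 to 33686385) encodes an activating E2F factor. In Caco-2 cells E2F1 was at 53.8, 57.2 and 43.6 TPM in mono-cultured controls, 69.2, 59.3 and 48.6 TPM in mono-culture with FFAs, 42.2 and 38.0 TPM in co-cultured controls and 49.3, 38.0 and 47.8 TPM in co-culture with FFAs. In HepG2 cells E2F1 was at 62.1, 59.6 and 68.0 TPM in mono-cultured controls, 67.7, 73.9 and 44.1 TPM in mono-culture with FFAs, 88.1, 94.6 and 79.4 TPM in co-cultured controls and 73.0, 84.3 and 56.0 TPM in co-culture with FFAs. Both co-cultured Caco-2 controls lay below every mono-cultured control, while all 3 co-cultured HepG2 controls lay above every mono-cultured one. Of the 12841 genes tested in both lines, 1.58% were arranged in this way. E2F2 (ENSG00000007968, chromosome 1, 23506438 to 23531233) encodes another activating E2F factor. E2F2 in Caco-2 cells was at 3.28, 3.75 and 2.81 TPM (mono-cultured controls), 3.52, 3.25 and 3.56 TPM (mono-culture with FFAs), 3.26 and 2.63 TPM (co-cultured controls) and 3.19, 2.84 and 3.22 TPM (co-culture with FFAs). E2F2 in HepG2 cells was at 3.25, 3.98 and 1.87 TPM (mono-cultured controls), 3.74, 4.82 and 0.980 TPM (mono-culture with FFAs), 5.17, 4.72 and 2.92 TPM (co-cultured controls) and 4.05, 6.01 and 1.68 TPM (co-culture with FFAs). In HepG2 cells both replicate 3 libraries with FFAs were lowest.

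CCNE2 (ENSG00000175305, chromosome 8) encodes an E-type cyclin that activates CDK2. In Caco-2 cells CCNE2 was at 5.59, 5.71 and 7.47 TPM in mono-cultured controls, 7.79, 7.66 and 9.34 TPM in mono-culture with FFAs, 6.93 and 5.46 TPM in co-cultured controls and 6.39, 5.65 and 6.02 TPM in co-culture with FFAs. In HepG2 cells CCNE2 was at 2.99, 1.63 and 3.41 TPM in mono-cultured controls, 3.95, 3.55 and 3.19 TPM in mono-culture with FFAs, 4.94, 5.19 and 2.93 TPM in co-cultured controls and 4.96, 3.32 and 2.14 TPM in co-culture with FFAs. The 3 mono-cultured Caco-2 libraries with FFAs lay above the 3 controls, as in 766 of 15081 genes and in no other member. Every Caco-2 library lay above every HepG2 library, a separation whose share over all genes was not computed. CDC25A (ENSG00000164045, chromosome 3, 48157146 to 48188417) encodes a phosphatase that activates the kinases of G1/S. CDC25A in Caco-2 cells was at 23.6, 27.6 and 25.8 TPM (mono-cultured controls), 30.6, 24.6 and 24.7 TPM (mono-culture with FFAs), 20.2 and 17.1 TPM (co-cultured controls) and 29.2, 15.5 and 20.0 TPM (co-culture with FFAs). CDC25A in HepG2 cells was at 12.4, 14.1 and 18.4 TPM (mono-cultured controls), 25.6, 21.2 and 19.6 TPM (mono-culture with FFAs), 16.2, 23.5 and 24.2 TPM (co-cultured controls) and 29.9, 26.4 and 16.8 TPM (co-culture with FFAs). The 3 mono-cultured HepG2 libraries with FFAs lay above the 3 controls, as in 442 of 14255 genes and in no other member. In Caco-2 cells both co-cultured controls lay below the mono-cultured ones (7.99% of all genes). UHRF1 (ENSG00000276043, chromosome 19, 4903080 to 4962154) encodes the factor that guides maintenance DNA methylation behind the fork. In Caco-2 cells UHRF1 was at 98.3, 84.3 and 57.7 TPM in mono-cultured controls, 107, 101 and 70.9 TPM in mono-culture with FFAs, 68.8 and 61.6 TPM in co-cultured controls and 95.1, 70.3 and 82.0 TPM in co-culture with FFAs. In HepG2 cells UHRF1 was at 101, 92.4 and 93.2 TPM in mono-cultured controls, 167, 153 and 73.3 TPM in mono-culture with FFAs, 161, 183 and 139 TPM in co-cultured controls and 184, 188 and 81.4 TPM in co-culture with FFAs. In HepG2 cells the co-cultured controls lay above the mono-cultured ones (7.25% of all genes), and both replicate 3 libraries with FFAs were lowest.

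The other G1/S regulators had levels between these. CCNE1, the second E-type cyclin, was at 19.3 to 33.3 TPM in Caco-2 cells and 33.0 to 65.3 TPM in HepG2 cells. E2F8, an atypical E2F that represses E2F targets, was at 12.0 to 22.6 TPM in Caco-2 cells and 2.99 to 7.42 TPM in HepG2 cells, without overlap between the lines.

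The replication genes are given by library for 5 members. MCM2 (ENSG00000073111, chromosome 3, 127598410 to 127622436) encodes a subunit of the MCM2-7 helicase. In Caco-2 cells MCM2 was at 189, 184 and 174 TPM in mono-cultured controls, 229, 207 and 169 TPM in mono-culture with FFAs, 171 and 147 TPM in co-cultured controls and 177, 146 and 180.4 TPM in co-culture with FFAs. In HepG2 cells MCM2 was at 77.7, 81.4 and 84.4 TPM in mono-cultured controls, 133, 113 and 68.2 TPM in mono-culture with FFAs, 117, 135 and 109 TPM in co-cultured controls and 137, 128 and 74.8 TPM in co-culture with FFAs. The co-cultured HepG2 controls lay above, and the co-cultured Caco-2 controls below, every mono-cultured control of their line. MCM3 (ENSG00000112118, chromosome 6, 52264014 to 52284881) encodes another subunit of that helicase. MCM3 in Caco-2 cells was at 171, 176 and 148 TPM (mono-cultured controls), 191, 185 and 154 TPM (mono-culture with FFAs), 141 and 138 TPM (co-cultured controls) and 166, 124 and 164 TPM (co-culture with FFAs). MCM3 in HepG2 cells was at 145, 144 and 183 TPM (mono-cultured controls), 218, 188 and 150.0 TPM (mono-culture with FFAs), 213, 239 and 237 TPM (co-cultured controls) and 243, 245 and 192 TPM (co-culture with FFAs). The same arrangement of the controls was seen as for MCM2.

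MCM7 (ENSG00000166508, chromosome 7, 100092233 to 100101940) encodes a further such subunit and is shown because of its values, beyond the rule for named genes. In Caco-2 cells MCM7 was at 274, 263 and 229.9 TPM in mono-cultured controls, 288, 281 and 238 TPM in mono-culture with FFAs, 227 and 190.0 TPM in co-cultured controls and 219.8, 164 and 219 TPM in co-culture with FFAs. In HepG2 cells MCM7 was at 116, 113 and 147 TPM in mono-cultured controls, 218, 159 and 108 TPM in mono-culture with FFAs, 183, 211 and 189.7 TPM in co-cultured controls and 223, 192 and 124 TPM in co-culture with FFAs. Controls were arranged as for MCM2. MCM10 (ENSG00000065328, chromosome 10, 13161558 to 13211110) encodes a factor that activates the loaded helicase. MCM10 in Caco-2 cells was at 35.2, 37.2 and 26.4 TPM (mono-cultured controls), 40.7, 38.0 and 34.9 TPM (mono-culture with FFAs), 24.1 and 20.6 TPM (co-cultured controls) and 33.8, 21.2 and 34.6 TPM (co-culture with FFAs). MCM10 in HepG2 cells was at 14.8, 16.2 and 13.9 TPM (mono-cultured controls), 32.2, 23.1 and 12.8 TPM (mono-culture with FFAs), 21.2, 26.3 and 16.9 TPM (co-cultured controls) and 33.4, 24.6 and 9.29 TPM (co-culture with FFAs). Controls were arranged as for MCM2, and in HepG2 cells both replicate 3 libraries with FFAs lay below every control. PCNA (ENSG00000132646, chromosome 20, 5114953 to 5126626) encodes the sliding clamp of the DNA polymerases. In Caco-2 cells PCNA was at 179, 179 and 167 TPM in mono-cultured controls, 218, 195 and 159.8 TPM in mono-culture with FFAs, 156 and 126 TPM in co-cultured controls and 179.8, 137 and 163 TPM in co-culture with FFAs. In HepG2 cells PCNA was at 218, 188 and 220.2 TPM in mono-cultured controls, 442, 271 and 173 TPM in mono-culture with FFAs, 269, 365 and 239 TPM in co-cultured controls and 443, 271 and 171 TPM in co-culture with FFAs. The replicate 1 library with FFAs was the highest in both HepG2 cultures and the replicate 3 library the lowest.

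The other genes of licensing and the fork are given as ranges. MCM4, a helicase subunit, was at 106 to 163 TPM in Caco-2 cells and 70.9 to 168 TPM in HepG2 cells. MCM5, likewise, was at 55.2 to 85.3 TPM in Caco-2 cells and 36.4 to 86.5 TPM in HepG2 cells. MCM6, the subunit with the largest gap between the lines, was at 42.4 to 76.8 TPM in Caco-2 cells and 8.65 to 20.7 TPM in HepG2 cells. CDC6, which loads the helicase at origins, was at 35.4 to 68.4 TPM in Caco-2 cells and 28.8 to 106 TPM in HepG2 cells. CDT1, its partner in loading, was at 42.5 to 69.2 TPM in Caco-2 cells and 16.0 to 44.8 TPM in HepG2 cells. GINS2, a subunit of the GINS complex that activates the helicase, was at 39.7 to 65.1 TPM in Caco-2 cells and 20.2 to 42.8 TPM in HepG2 cells. Of nucleotide supply, RRM1, the large subunit of ribonucleotide reductase, was at 92.4 to 129 TPM in Caco-2 cells and 33.6 to 93.9 TPM in HepG2 cells. RRM2, its small subunit, was at 114 to 247 TPM in Caco-2 cells and 99.9 to 311 TPM in HepG2 cells. TYMS, thymidylate synthase, was at 105 to 179 TPM in Caco-2 cells and 149 to 256 TPM in HepG2 cells. Within this set of 9 genes only MCM6 separated the lines without overlap, a count that was not made over all genes.

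Of the mitotic entry genes, 5 are given by library. CDK1 (ENSG00000170312, chromosome 10, 60778331 to 60794852) encodes the kinase that drives mitosis. In Caco-2 cells CDK1 was at 274, 275 and 305 TPM in mono-cultured controls, 305, 277 and 245 TPM in mono-culture with FFAs, 254 and 274 TPM in co-cultured controls and 262, 244 and 307 TPM in co-culture with FFAs. In HepG2 cells CDK1 was at 58.6, 78.0 and 68.2 TPM in mono-cultured controls, 100.2, 102 and 47.0 TPM in mono-culture with FFAs, 77.4, 96.2 and 71.1 TPM in co-cultured controls and 102, 108 and 56.6 TPM in co-culture with FFAs. Every Caco-2 library lay above every HepG2 library. CCNB1 (ENSG00000134057, chromosome 5, 69167135 to 69178245) encodes its B-type cyclin partner. CCNB1 in Caco-2 cells was at 478, 486 and 450.0 TPM (mono-cultured controls), 525, 488 and 398 TPM (mono-culture with FFAs), 454 and 413 TPM (co-cultured controls) and 468, 362 and 419 TPM (co-culture with FFAs). CCNB1 in HepG2 cells was at 112, 149 and 104 TPM (mono-cultured controls), 293, 213 and 77.7 TPM (mono-culture with FFAs), 112, 195 and 82.7 TPM (co-cultured controls) and 287, 182 and 67.9 TPM (co-culture with FFAs). The replicate 1 library with FFAs was highest and the replicate 3 library lowest in both HepG2 cultures.

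CCNB2 (ENSG00000157456, chromosome 15, 59105126 to 59125045) encodes the second B-type cyclin. In Caco-2 cells CCNB2 was at 188, 201 and 273 TPM in mono-cultured controls, 219, 175 and 166 TPM in mono-culture with FFAs, 229 and 228 TPM in co-cultured controls and 201, 197 and 222 TPM in co-culture with FFAs. In HepG2 cells CCNB2 was at 60.6, 87.7 and 73.8 TPM in mono-cultured controls, 101, 104 and 50.3 TPM in mono-culture with FFAs, 77.1, 88.6 and 69.7 TPM in co-cultured controls and 98.2, 107 and 53.8 TPM in co-culture with FFAs. The co-cultured and mono-cultured controls overlapped in both lines. CDC25C (ENSG00000158402, chromosome 5, 138285269 to 138338355) encodes the phosphatase that activates CDK1. CDC25C in Caco-2 cells was at 44.4, 39.9 and 45.2 TPM (mono-cultured controls), 46.6, 38.3 and 34.0 TPM (mono-culture with FFAs), 49.6 and 48.2 TPM (co-cultured controls) and 41.6, 42.4 and 47.7 TPM (co-culture with FFAs). CDC25C in HepG2 cells was at 18.4, 25.4 and 18.5 TPM (mono-cultured controls), 28.0, 27.0 and 11.8 TPM (mono-culture with FFAs), 20.8, 23.6 and 20.3 TPM (co-cultured controls) and 20.7, 30.4 and 15.3 TPM (co-culture with FFAs). Both co-cultured Caco-2 controls lay above every mono-cultured one, as in 2272 of 15081 genes and 2 of the 39 members. For MCM2, MCM3, MCM6, MCM7, MCM10 and PCNA both lay below, as in 1205 of 15081 genes and 8 of the 39 members. For CDC6, CDT1, MCM4, MCM5 and GINS2 these controls overlapped. PLK1 (ENSG00000166851, chromosome 16, 23677656 to 23690367) encodes a mitotic kinase. In Caco-2 cells PLK1 was at 201, 188 and 226 TPM in mono-cultured controls, 212, 191 and 161 TPM in mono-culture with FFAs, 197 and 217 TPM in co-cultured controls and 169.8, 166 and 201 TPM in co-culture with FFAs. In HepG2 cells PLK1 was at 137, 193 and 145 TPM in mono-cultured controls, 224, 231 and 92.5 TPM in mono-culture with FFAs, 163, 222 and 156 TPM in co-cultured controls and 229, 261 and 124 TPM in co-culture with FFAs. In both HepG2 cultures replicates 1 and 2 with FFAs lay above, and replicate 3 below, every control. CCNA2, the A-type cyclin of S phase and G2, was at 79.0 to 116 TPM in Caco-2 cells and 35.2 to 91.7 TPM in HepG2 cells. FOXM1, a transcription factor of mitotic genes, was at 95.8 to 118 TPM in Caco-2 cells and 23.8 to 50.3 TPM in HepG2 cells, without overlap between the lines.

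Of the chromosome, spindle and checkpoint genes, the common proliferation markers are given by library. MKI67 (ENSG00000148773, chromosome 10, 128096659 to 128126423) encodes Ki-67, a coat protein of mitotic chromosomes. In Caco-2 cells MKI67 was at 20.4, 24.8 and 22.3 TPM in mono-cultured controls, 20.8, 31.1 and 22.3 TPM in mono-culture with FFAs, 16.5 and 23.2 TPM in co-cultured controls and 18.6, 20.2 and 20.8 TPM in co-culture with FFAs. In HepG2 cells MKI67 was at 6.55, 10.1 and 6.72 TPM in mono-cultured controls, 17.0, 16.4 and 7.21 TPM in mono-culture with FFAs, 11.4, 9.77 and 10.7 TPM in co-cultured controls and 12.7, 14.6 and 7.89 TPM in co-culture with FFAs. Replicates 1 and 2 with FFAs lay above every mono-cultured HepG2 control. TOP2A (ENSG00000131747, chromosome 17, 40388525 to 40417896) encodes the topoisomerase that untangles replicated chromosomes. TOP2A in Caco-2 cells was at 105, 103 and 121 TPM (mono-cultured controls), 116, 111 and 106 TPM (mono-culture with FFAs), 102 and 123 TPM (co-cultured controls) and 96.5, 108 and 119 TPM (co-culture with FFAs). TOP2A in HepG2 cells was at 83.3, 138 and 94.9 TPM (mono-cultured controls), 168, 171 and 65.5 TPM (mono-culture with FFAs), 98.2, 128 and 87.8 TPM (co-cultured controls) and 156, 165 and 70.1 TPM (co-culture with FFAs). In HepG2 cells the 2 libraries with the highest TOP2A were replicates 1 and 2 of mono-culture with FFAs and the lowest was replicate 3.

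The remaining spindle genes are given as ranges. AURKA, the spindle pole kinase, was at 205 to 353 TPM in Caco-2 cells and 71.2 to 257 TPM in HepG2 cells. TPX2, its activator, was at 166 to 249 TPM in Caco-2 cells and 49.3 to 153 TPM in HepG2 cells. AURKB, the kinase of the chromosomal passenger complex, was at 99.9 to 154 TPM in Caco-2 cells and 51.1 to 129 TPM in HepG2 cells. BIRC5 (survivin), a subunit of that complex, was at 84.5 to 114 TPM in Caco-2 cells and 62.3 to 160.4 TPM in HepG2 cells. BUB1, a kinase of the spindle checkpoint, was at 57.0 to 84.5 TPM in Caco-2 cells and 21.0 to 71.4 TPM in HepG2 cells. BUB1B, which encodes the checkpoint protein BubR1, was at 25.2 to 41.5 TPM in Caco-2 cells and 12.9 to 40.7 TPM in HepG2 cells. CDC20, which activates the anaphase-promoting complex, was at 148 to 231 TPM in Caco-2 cells and 51.5 to 177 TPM in HepG2 cells. CENPF, a kinetochore protein, was at 32.8 to 61.4 TPM in Caco-2 cells and 12.4 to 33.3 TPM in HepG2 cells. KIF11, the motor that separates spindle poles, was at 29.5 to 40.1 TPM in Caco-2 cells and 10.4 to 27.8 TPM in HepG2 cells. TPX2 and KIF11 separated the lines without overlap, and the other 7 did not, with no share of all genes computed beside this count.

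**Figure D1:**
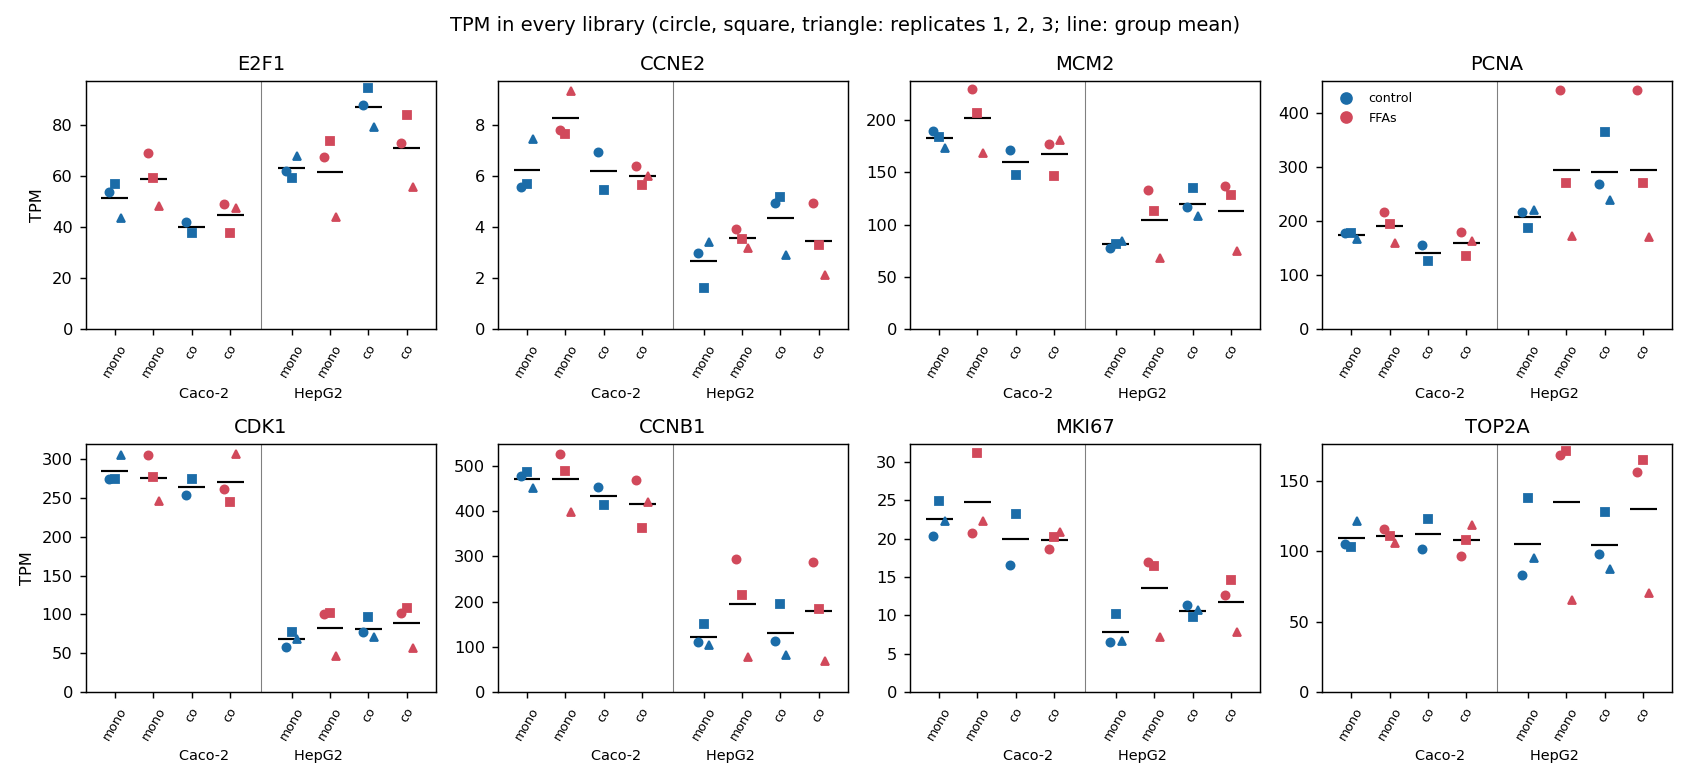
TPM (vertical axis) of 8 genes in each library, with mono-cultured and co-cultured cells of both lines along the horizontal axis. Blue points are control libraries, red points are libraries with FFAs, the marker shape gives the replicate and black lines are group means. In HepG2 cells the replicate 3 libraries with FFAs (red triangles) lie low, such as 77.7 and 67.9 TPM for CCNB1, and the CDK1 and CCNB1 points of Caco-2 cells lie above all those of HepG2 cells.

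To ask how the lines differ over matched cultures and treatments, Caco-2 and HepG2 cells were compared in 1 limma fit of all 23 libraries. Mitotic genes made up most of those higher in Caco-2 cells, and several S phase genes were higher in HepG2 cells. Of the 39 genes, 31 passed (adjusted p under 0.05, limma with Benjamini-Hochberg adjustment over 16495 genes), 25 of them higher in Caco-2 cells and 6 higher in HepG2 cells. Of all genes tested, 79.0% passed, so the share of the 39 genes that did (31 of 39) was near the background. The median log2 fold change was 0.61 over the 39 genes and 0.24 over all genes. With median-of-ratios scaling 21 were higher in Caco-2 and 9 in HepG2 cells, the median of all genes was 0.049 and that of the 39 genes 0.38. On the TPM scale the median of the 39 genes was 0.38 with replicates 1 and 2 only and 0.91 with the number of genes above 0 TPM as a covariate, both chosen after the values were seen. Relative to all genes the median of the 39 was 0.37 higher in the fit of all libraries and 0.33 higher after that scaling.

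By role, 6 of 7 mitotic entry genes and 9 of 11 spindle and checkpoint genes were higher in Caco-2 and 0 in HepG2 cells, with median log2 fold changes of 1.40 and 0.81. After median-of-ratios scaling these counts were 6 of 7 and 6 of 11, and BIRC5, CDC6 and RRM2 became higher in HepG2 cells. Of the 11 replication genes 7 were higher in Caco-2 and 2 in HepG2 cells, of the 7 G1/S regulators 2 and 3, and of the 3 nucleotide enzymes 1 and 1. The largest differences toward Caco-2 cells were those of MCM6 1.98 (SE 0.13, adjusted p = 4.3e-11), CDK1 1.80 (SE 0.13, adjusted p = 7.8e-11), E2F8 1.73 (SE 0.13, adjusted p = 1.3e-10), CCNB1 1.67 (SE 0.22, adjusted p = 1.2e-06) and FOXM1 1.58 (SE 0.12, adjusted p = 1.7e-10) on the log2 scale (limma). The largest toward HepG2 cells were CCNE1 -0.97 (SE 0.12, adjusted p = 3.1e-07), UHRF1 -0.69 (SE 0.16, adjusted p = 4.4e-04), PCNA -0.65 (SE 0.15, adjusted p = 6.1e-04), TYMS -0.63 (SE 0.093, adjusted p = 3.9e-06) and E2F1 -0.52 (SE 0.094, adjusted p = 4.4e-05). MCM3 was the other member higher in HepG2 cells, so the helicase subunits, which form 1 complex, differed in opposite directions (MCM3 -0.32, MCM6 1.98). The 8 members that did not pass were BIRC5, CDC25A, CDC6, E2F2, MCM5, PLK1, RRM2 and TOP2A. In 11 of the 39 genes every Caco-2 library lay above every HepG2 library, and 28 overlapped. In no member did every HepG2 library lie above every Caco-2 library. The shares of all genes separated in these ways were not computed, so these counts have no background beside them.

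**Figure D2:**
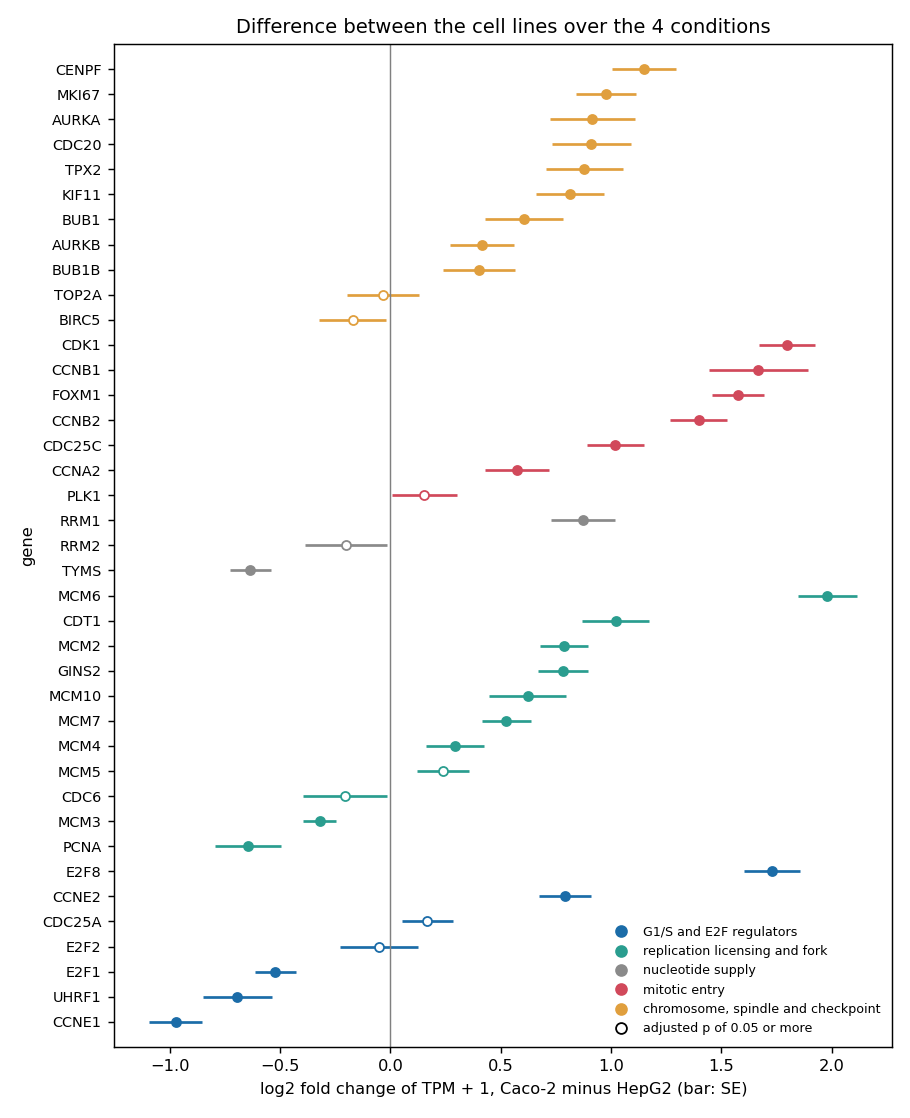
Log2 fold change of TPM + 1 between Caco-2 and HepG2 cells (horizontal axis, averaged over the 4 conditions, bars are SE) for each of the 39 genes, coloured by role. Filled points passed limma at an adjusted p under 0.05 and open points did not. The mitotic entry genes reach 1.80 (CDK1), whereas CCNE1, at -0.97, is farthest toward HepG2 cells.

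In HepG2 cells with FFAs the libraries of 1 group disagreed over these genes. The summed level of the 39 genes was 2403, 2814 and 2587 TPM in mono-cultured controls and 4527, 3752 and 1953 TPM with FFAs, so replicates 1 and 2 lay above, and replicate 3 below, all controls. In co-culture it was 3190.5, 4122 and 2972 TPM in controls and 4589.6, 4043 and 2145 TPM with FFAs, and replicate 3 was again the lowest. The mean log2(TPM + 1) over the 39 genes was 5.35, 5.57 and 5.44 in mono-cultured controls, 6.20, 5.99 and 5.06 with FFAs, 5.76, 6.08 and 5.63 in co-cultured controls and 6.22, 6.09 and 5.17 with FFAs. In mono-culture 35 of the 39 genes had replicates 1 and 2 with FFAs above every control, against 14.2% of all genes. The exceptions were CDC6, CENPF, E2F1 and E2F2. In 27 genes replicate 3 was in addition below every control (5.12% of all genes). In co-culture the counts were 18 (11.0% of all genes) and 16 (4.31%). These arrangements were not among the planned comparisons, and all genes of a culture are read in the same libraries, so the counts only describe these libraries. Replicate 3 was the lowest of the 12 HepG2 libraries for 23 genes in mono-culture with FFAs and for 9 in co-culture with FFAs. The same counts were not made over all genes. The replicate 3 libraries with FFAs had 22252 and 22416 genes above 0 TPM, against 20195 to 20699 in replicates 1 and 2 with FFAs. The part of this in the levels was not tested.

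**Figure D3:**
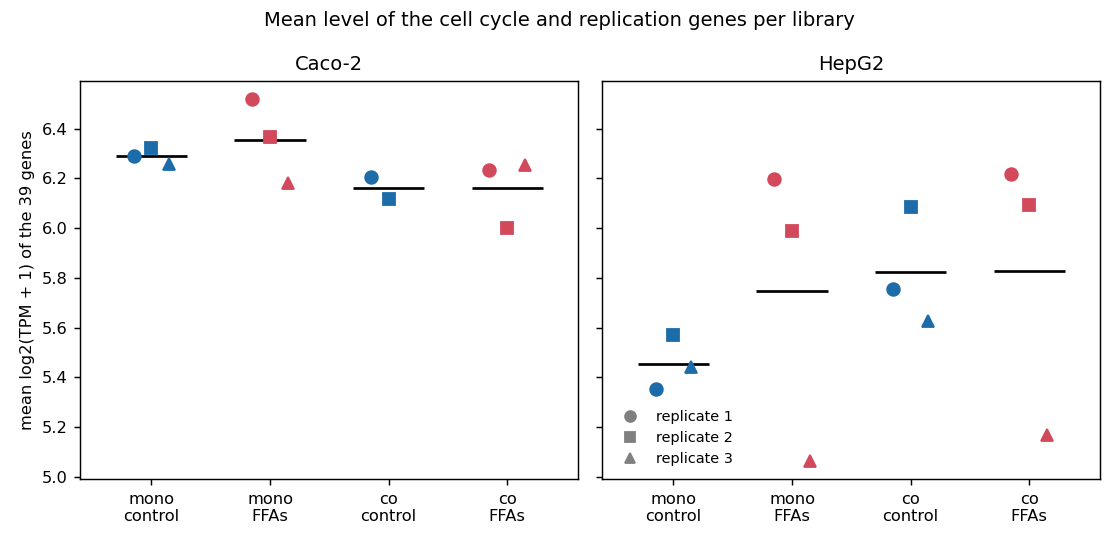
Mean log2(TPM + 1) of the 39 genes (vertical axis) in each library, by group (horizontal axis) for Caco-2 and HepG2 cells. Marker shapes give the replicate, red points are libraries with FFAs and black lines are group means. In HepG2 cells with FFAs replicates 1 and 2 lie between 5.99 and 6.22 and replicate 3 at 5.06 and 5.17, whereas all Caco-2 libraries lie between 6.0 and 6.52.

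For FFAs in mono-cultured HepG2 cells, the fit of all libraries gave positive log2 fold changes for 37 of the 39 genes, with a median of 0.31 against 0.0036 over all genes, and 0 passed limma at an adjusted p under 0.05 (0% of 14255 genes tested). At an unadjusted p under 0.05 the count was 1, CDC25A, with 0.54 (SE 0.23, unadjusted p = 0.036, adjusted p = 1.00), against 2.24% of all genes. MKI67 had 0.66 (SE 0.30, adjusted p = 1.00) and PCNA 0.40 (SE 0.35, adjusted p = 1.00), while E2F1 had -0.061 (SE 0.19, adjusted p = 1.00). By role the medians were 0.34 for G1/S, 0.40 for licensing and the fork, 0.37 for nucleotide supply, 0.14 for mitotic entry and 0.21 for the spindle. The median rested on single libraries: it was 0.064 without replicate 1 with FFAs and 0.62 without replicate 3. With replicates 1 and 2 of all groups only, an alternative chosen after the values were seen, it was 0.65, all 39 were higher with FFAs, 33 had an unadjusted p under 0.05 (6.42% of all genes in that fit) and 0 passed adjustment.

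In co-cultured HepG2 cells 21 of 39 genes were higher with FFAs, the median log2 fold change was 0.013, and limma called 0 (0% of all genes), also 0 at an unadjusted p under 0.05 (1.84% of all genes). All 11 genes of licensing and the fork had negative values there (median -0.12) and all 11 spindle genes positive ones (median 0.094), none of which passed. The mean log2(TPM + 1) of the licensing and fork genes was 6.14, 6.45 and 6.03 in controls and 6.57, 6.23 and 5.47 with FFAs. For the spindle genes it was 5.64, 6.04 and 5.55 in controls and 6.25, 6.23 and 5.16 with FFAs. Replicate 3 with FFAs was the lowest for both roles, so no direction by role is read from these signs. Without replicate 3 with FFAs the median was 0.34, and without replicate 1 or 2 with FFAs it was -0.13 and -0.11. It was -0.0082, 0.11 and -0.063 without control replicates 1, 2 and 3. It was 0.24 with replicates 1 and 2 only and 0.25 with the number of genes above 0 TPM as a covariate. Averaged over both cultures, 37 of 39 were higher with FFAs with a median of 0.14, 0 passed limma (0% of all genes) and 1, CDC25A, had an unadjusted p under 0.05 (3.49% of all genes). The 2 largest positive values were those of CCNB1, 0.41 (SE 0.38, adjusted p = 1.00), and MKI67, 0.38 (SE 0.22, adjusted p = 1.00). The 2 negative values were those of E2F1, -0.19 (SE 0.14, adjusted p = 1.00), and E2F2, -0.12 (SE 0.31, adjusted p = 1.00). The averaged median was 0.32 without the mono-cultured replicate 3 with FFAs, 0.31 without the co-cultured one, and 0.034 to 0.080 without replicate 1 or 2 with FFAs of either culture. It was 0.43 with replicates 1 and 2 only and 0.29 with the number of genes above 0 TPM as a covariate.

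Co-culture with Caco-2 cells was compared with mono-culture in HepG2 cells to see how the joined line bears on these genes. Without FFAs all 39 genes had positive log2 fold changes, although none passed the adjusted test and CCNB1 and TOP2A turned negative with quantile normalization (-0.034 and -0.026). UHRF1, CDT1 and RRM2 had the largest values (0.74, 0.65 and 0.65). The median was 0.36 against -0.023 over all genes, limma called 0 members (0% of all genes), and 7 had an unadjusted p under 0.05, all higher in co-culture (7.53% of all genes in either direction). These were MCM3, MCM7, GINS2, E2F1, UHRF1, MCM2 and E2F8, and MCM3 had 0.55 (SE 0.15, unadjusted p = 0.0037, adjusted p = 0.58). The role medians were 0.57 for licensing and the fork, 0.48 for G1/S, 0.36 for nucleotide supply, 0.23 for the spindle and 0.18 for mitotic entry. CDK1 had 0.25 (SE 0.30, adjusted p = 0.90) and TOP2A 0.0060 (SE 0.39, adjusted p = 1.00). In 15 of 39 genes every co-cultured control lay above every mono-cultured one, against 7.25% of all genes. The 3 co-cultured controls had 19836, 19259 and 21588 genes above 0 TPM and the 3 mono-cultured ones 20262, 20873 and 21884. With that number as a covariate, a fit chosen after the values were seen, the median was 0.028 and 23 genes were higher. Without co-cultured control replicate 2 it was 0.24.

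With FFAs the co-culture difference of HepG2 cells was smaller in value. The median over the 39 genes was 0.075 with 29 higher, limma called 0 (0% of all genes), and 0 had an unadjusted p under 0.05 (5.63% of all genes). The median became -0.27 without the mono-cultured replicate 3, -0.079 and -0.045 without co-cultured replicates 1 and 2, and was 0.41 without co-cultured replicate 3. Without mono-cultured replicates 1 and 2 it was 0.30 and 0.21. Averaged over both treatments 37 of 39 genes were higher in co-culture with a median of 0.23, and limma called 0 members (0.0561% of all genes, 8 of 14255). The unadjusted count was 3, MCM3, E2F1 and MCM7, against 12.5% of all genes. The 2 largest positive values were UHRF1, 0.47 (SE 0.24, adjusted p = 0.45), and MCM3, 0.42 (SE 0.11, adjusted p = 0.15). Negative values were found for CCNB1, -0.066 (SE 0.38, adjusted p = 0.96), and TOP2A, -0.0083 (SE 0.28, adjusted p = 0.99), both smaller than their error, and TOP2A turned to 0.019 with median-of-ratios scaling. With the number of genes above 0 TPM as a covariate MCM3 passed (0.40, adjusted p = 0.049 by limma), as did 4.73% of all genes, and the averaged median was 0.082. Without the mono-cultured replicate 3 with FFAs the averaged median was 0.021, without the co-cultured one 0.40, and without co-cultured control replicate 2 or co-cultured replicate 1 with FFAs 0.14 and 0.12.

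In Caco-2 cells joined to HepG2 cells most of the 39 genes had lower values, again without a member that passed the adjusted test. All 11 genes of licensing and the fork and all 7 G1/S regulators had negative log2 fold changes both without FFAs (medians -0.24 and -0.17) and with FFAs (-0.29 and -0.22). The spindle genes had medians of -0.059 (7 of 11 lower) and -0.20 (9 of 11 lower), and the mitotic entry genes 0.019 and -0.028. The roles were not tested against each other. Without FFAs 31 of 39 genes were lower in co-culture, the median log2 fold change was -0.11 against 0.040 over all genes, limma called 0 (0.0199% of all genes), and 2 genes, MCM10 and MCM6, had an unadjusted p under 0.05 (5.43% of all genes). With FFAs 35 of 39 were lower, the median was -0.22, limma called 0 (0% of all genes), and 9 had an unadjusted p under 0.05, all lower (6.09% of all genes). These 9 were MCM7, CDT1, CCNE2, E2F1, MCM5, AURKB, CDC6, RRM1 and MCM6, and CDT1 had -0.40 (SE 0.12, unadjusted p = 0.0078, adjusted p = 0.75). Every co-cultured library lay below every mono-cultured one in 8 genes without FFAs (7.99% of all genes) and in 6 with FFAs (4.63%). The summed level of the 39 genes was 4533, 4610.2 and 4453 TPM in mono-cultured controls and 4255 and 4014 TPM in co-cultured ones. With FFAs it was 5266, 4666 and 3943 TPM in mono-culture and 4257, 3660.1 and 4302 TPM in co-culture, so the groups overlapped.

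Averaged over both treatments 34 of 39 genes were lower in co-cultured Caco-2 cells, with a median of -0.17 against 0.028 over all genes. Limma called 0 members (0% of all genes), and 13 had an unadjusted p under 0.05, all lower, against 10.5% of all genes in either direction. 9 of these 13 belong to licensing and the fork (MCM7, MCM10, MCM6, PCNA, CDC6, MCM2, MCM3, CDT1 and MCM4), and the others were E2F1, CDC25A, AURKB and TYMS. The role medians were -0.23 for licensing and the fork, -0.29 for nucleotide supply, -0.20 for G1/S, -0.11 for the spindle and -0.024 for mitotic entry. The largest negative values were MCM10, -0.44 (SE 0.14, adjusted p = 0.34), and CDC25A, -0.39 (SE 0.14, adjusted p = 0.40). The largest positive ones were CDC25C, 0.17 (SE 0.089, adjusted p = 0.55), and CCNB2, 0.11 (SE 0.10, adjusted p = 0.73). The median of the comparison with FFAs was -0.13 without mono-cultured replicate 1 with FFAs and -0.14 without co-cultured replicate 2. That mono-cultured library was the highest Caco-2 library for 25 of the 39 genes, a count that was not made over all genes. The median without FFAs was -0.19 and -0.055 without co-cultured control replicates 1 and 2, each of which leaves 1 library in that group. It was -0.068 with the number of genes above 0 TPM as a covariate. The median with FFAs was -0.35 with replicates 1 and 2 only.

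**Figure D4:**
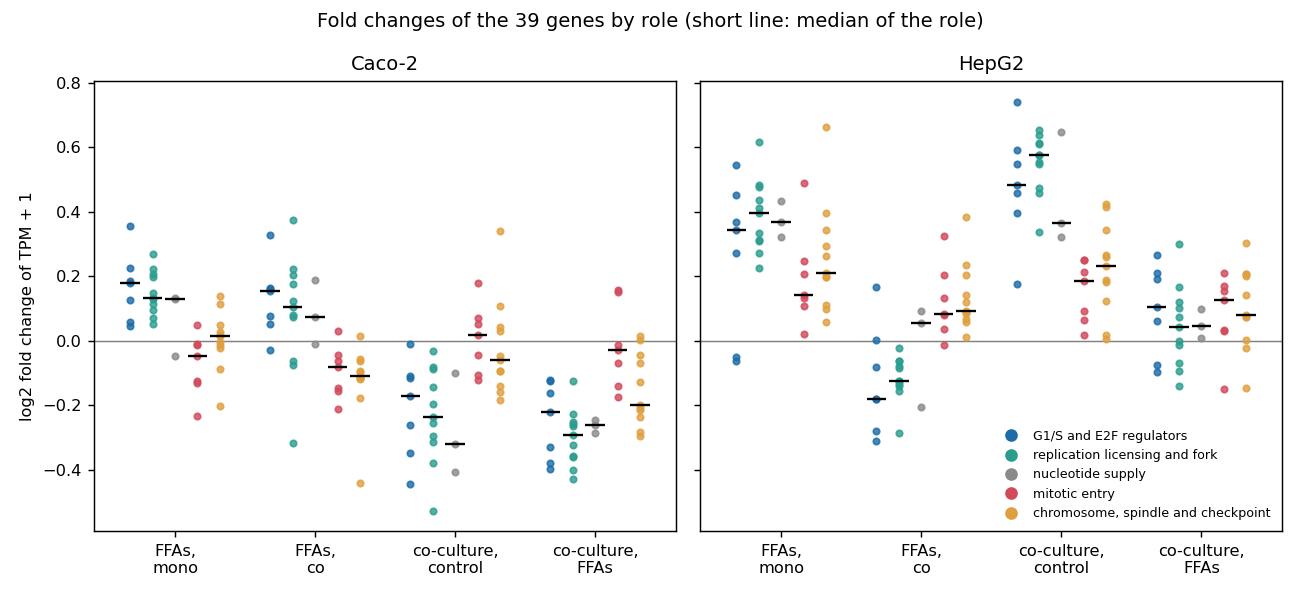
Log2 fold change of TPM + 1 (vertical axis) of each of the 39 genes in the 4 single comparisons of each line (horizontal axis), coloured by role, with a short line at the median of the role. In co-cultured controls the replication genes have a median of -0.24 in Caco-2 and 0.57 in HepG2 cells, and none of the points passed limma.

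FFAs went with small differences of both signs in Caco-2 cells. In mono-culture 27 of 39 genes were higher with FFAs, the median log2 fold change was 0.059 against 0.029 over all genes, limma called 0 (0% of all genes), and 1 gene, CCNE2, had an unadjusted p under 0.05 with 0.36 (SE 0.16, unadjusted p = 0.045, adjusted p = 1.00) (2.61% of all genes). All 7 G1/S regulators and all 11 replication genes had positive values (medians 0.18 and 0.13), whereas 6 of 7 mitotic entry genes had negative ones (median -0.048). In co-culture 18 of 39 were higher, the median was -0.029, limma called 0 (0.0199% of all genes), and 1 gene, CDT1, had an unadjusted p under 0.05 with -0.32 (SE 0.14, unadjusted p = 0.043, adjusted p = 1.00) (2.83% of all genes). Averaged over both cultures the median was 0.014 with 22 higher, limma called 0 (0% of all genes) and 0 had an unadjusted p under 0.05 (3.99% of all genes). The largest positive values were MCM10, 0.29 (SE 0.14, adjusted p = 0.99), and UHRF1, 0.28 (SE 0.15, adjusted p = 0.99), and the largest negative ones CCNB2, -0.19 (SE 0.10, adjusted p = 0.99), and PLK1, -0.17 (SE 0.088, adjusted p = 0.99). Single libraries moved these medians by over 1.5 times or past 0, so no direction is read from them. In mono-culture the median was 0.094 without mono-cultured control replicate 2, 0.028 without mono-cultured control replicate 3, -0.0038 without mono-cultured replicate 1 with FFAs and 0.16 without mono-cultured replicate 3 with FFAs. It was 0.12 with replicates 1 and 2 only. In co-culture it was 0.022 without co-cultured control replicate 1, -0.059 without co-cultured control replicate 2, 0.045 without co-cultured replicate 2 with FFAs and -0.073 without co-cultured replicate 3 with FFAs. It was also -0.073 with replicates 1 and 2 only. The averaged median was 0.054 without co-cultured control replicate 1, 0.0020 without co-cultured replicate 1 with FFAs, 0.060 without co-cultured replicate 2 with FFAs, -0.00090 without co-cultured replicate 3 with FFAs, 0.021 without mono-cultured control replicate 1, 0.025 without mono-cultured control replicate 2, -0.020 without mono-cultured replicate 1 with FFAs, -0.0058 without mono-cultured replicate 2 with FFAs and 0.065 without mono-cultured replicate 3 with FFAs. It was 0.029 with the number of genes above 0 TPM as a covariate.

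Whether FFAs acted differently in the 2 cultures was tested as an interaction. In Caco-2 cells limma called 0 members (0% of all genes), 0 had an unadjusted p under 0.05 (1.94% of all genes), and the median difference of log2 fold changes (co-culture minus mono-culture) was -0.061. It was 0.016 without co-cultured control replicate 1, 0.024 without co-cultured replicate 2 with FFAs, -0.12 without co-cultured replicate 3 with FFAs, 0.031 without mono-cultured replicate 1 with FFAs and -0.16 without mono-cultured replicate 3 with FFAs. It was also -0.21 with replicates 1 and 2 only. In HepG2 cells the median was -0.27, with 36 of 39 values negative, limma called 0 (0% of all genes) and 0 had an unadjusted p under 0.05 (1.16% of all genes). That median was -0.46 without co-cultured replicate 1 with FFAs, 0.022 without co-cultured replicate 3 with FFAs, -0.077 without mono-cultured replicate 1 with FFAs, -0.16 without mono-cultured replicate 2 with FFAs and -0.64 without mono-cultured replicate 3 with FFAs. It was -0.040 with the number of genes above 0 TPM as a covariate. Whether the lines differed was tested in the fit of all 23 libraries. For FFAs limma called 0 members (0.0182% of all genes), 0 had an unadjusted p under 0.05 (2.99% of all genes), and the median of the difference (Caco-2 minus HepG2) was -0.10. That value was -0.16 without Caco-2 co-cultured control replicate 2, -0.18 without Caco-2 co-cultured replicate 3 with FFAs, -0.19 without Caco-2 mono-cultured replicate 1 with FFAs, -0.035 without Caco-2 mono-cultured replicate 3 with FFAs, -0.19 without HepG2 co-cultured control replicate 2, -0.064 without HepG2 co-cultured control replicate 3, -0.018 without HepG2 co-cultured replicate 1 with FFAs, -0.051 without HepG2 co-cultured replicate 2 with FFAs, -0.30 without HepG2 co-cultured replicate 3 with FFAs, -0.017 without HepG2 mono-cultured replicate 1 with FFAs, -0.059 without HepG2 mono-cultured replicate 2 with FFAs and -0.29 without HepG2 mono-cultured replicate 3 with FFAs. It was -0.38 with replicates 1 and 2 only and -0.21 with the number of genes above 0 TPM as a covariate.

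For co-culture the difference between the lines was larger. The median over the 39 genes was -0.37 (Caco-2 minus HepG2) against 0.055 over all genes, with 36 values negative. Limma called 0 members (0.533% of all genes), and 8 had an unadjusted p under 0.05, all negative, against 14.6% of all genes in either direction. The smallest p-values were those of MCM3, -0.66 (SE 0.15, unadjusted p = 3.4e-04, adjusted p = 0.055), and E2F1, -0.70 (SE 0.19, unadjusted p = 0.0015, adjusted p = 0.10), and the others were MCM7, CDC25A, TYMS, MCM2, MCM5 and UHRF1. The role medians were -0.53 for licensing and the fork, -0.52 for G1/S, -0.52 for nucleotide supply, -0.33 for the spindle and -0.17 for mitotic entry. In 6 genes, E2F1, MCM2, MCM3, MCM7, MCM10 and PCNA, every co-cultured control was lower in Caco-2 cells, where there are 2, and higher in HepG2 cells, an arrangement of 1.58% of the 12841 genes tested in both lines. The count of calls changed with single libraries and with the settings. MCM3 passed with a minimum of 5 TPM and with the number of genes above 0 TPM as a covariate (0.858% and 1.74% of all genes called). It also passed without Caco-2 co-cultured replicate 1 with FFAs, without Caco-2 mono-cultured replicate 3 with FFAs or without HepG2 mono-cultured control replicate 3. Both MCM3 and MCM7 passed without HepG2 co-cultured replicate 3 or mono-cultured replicate 1 with FFAs, and the adjusted p of these calls with a library left out was 0.028 to 0.046 by limma (0.707% to 1.49% of all genes called). With replicates 1 and 2 only, chosen after the values were seen, 6 passed (E2F1, MCM2, MCM3, MCM7, TYMS and UHRF1), against 1.96% of all genes in that fit. With a replicate block E2F1, MCM3 and MCM7 passed (adjusted p of 0.027, 0.030 and 0.049 by limma), against 2.09% of all genes. The median was -0.56 without HepG2 co-cultured replicate 3 with FFAs and -0.19 without HepG2 mono-cultured replicate 3 with FFAs. It was -0.18 with the number of genes above 0 TPM as a covariate.

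By the criteria of the study, an unadjusted p under 0.05 in a one-way analysis of variance over the 4 groups of a line and a 1.2-fold difference between a pair of groups, 0 of the 39 genes were selected in Caco-2 cells against 3.08% of all genes. In HepG2 cells 1 was selected, MCM3, against 3.56%. In Caco-2 cells limma's moderated F test with the same fold selected 3, CDT1, MCM10 and MCM7, against 3.75%. With single libraries left out the counts by the criteria of the study were 0 to 4 in Caco-2 cells, with 4 without mono-cultured replicate 3 with FFAs, and 0 to 3 in HepG2 cells, with 3 without co-cultured replicate 3 with FFAs and 0 without each of 6 others in turn.

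**Figure D5:**
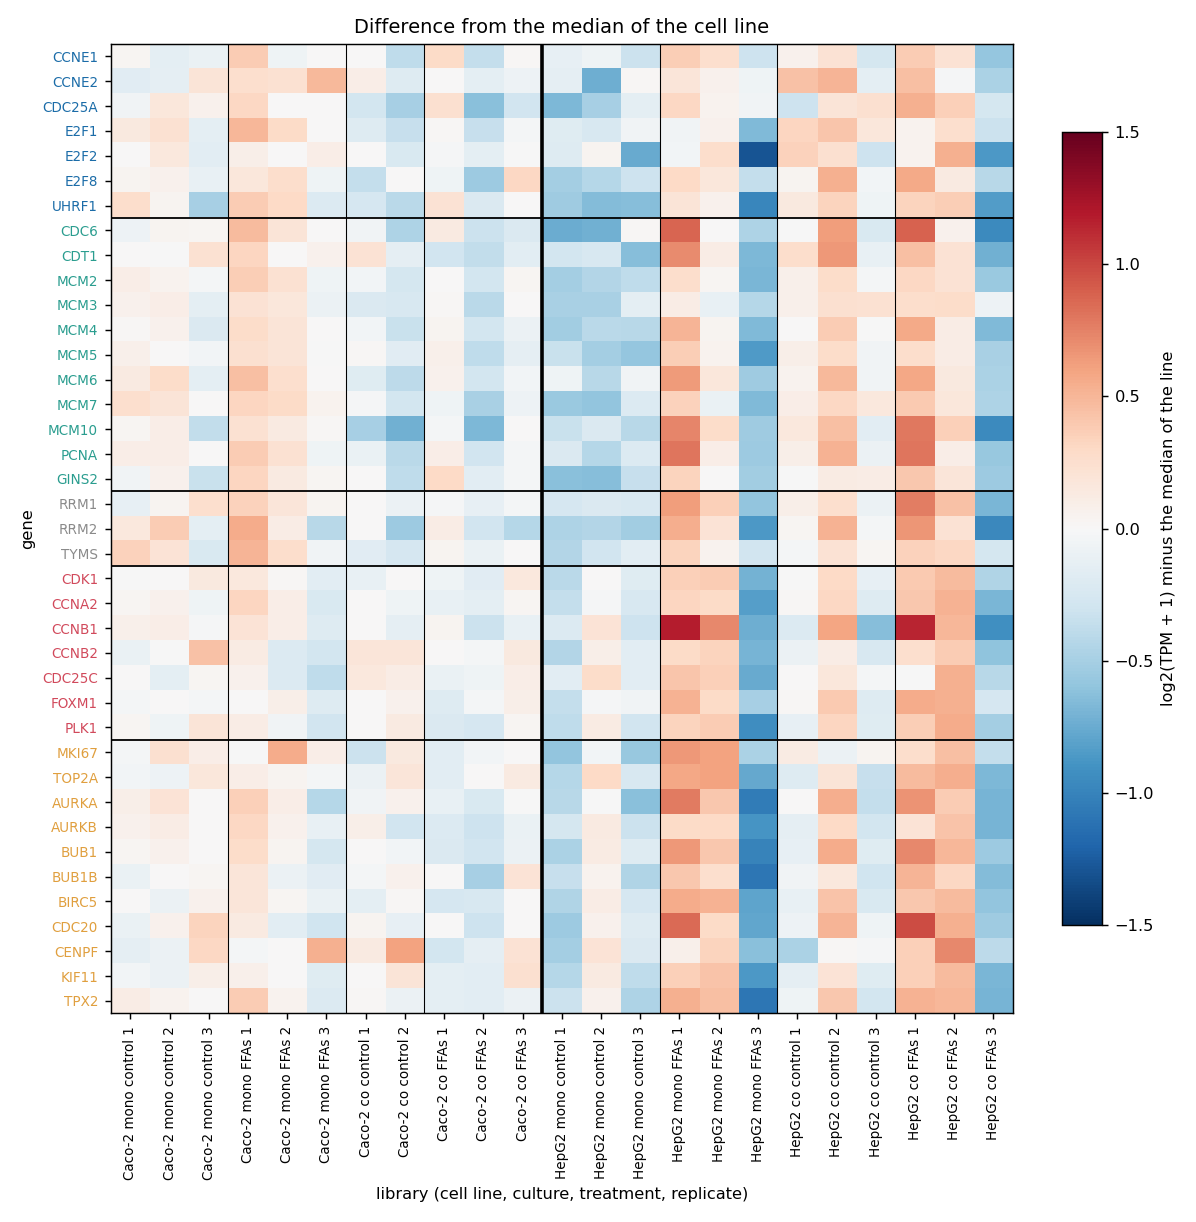
Difference of log2(TPM + 1) from the median of its line (colour scale, red is higher) for the 39 genes (vertical axis, gene names coloured by role) in the 23 libraries (horizontal axis, Caco-2 left and HepG2 right of the thick line). In HepG2 cells the columns of replicates 1 and 2 with FFAs are mostly red and those of replicate 3 with FFAs mostly blue, with CCNB1 and E2F2 among the widest ranges (67.9 to 293 TPM and 0.98 to 6.01 TPM).

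Other genes of the pathway were read from 4 further lists of 92 genes, of which 92 were tested in Caco-2 and 90 in HepG2 cells. Within a line limma called 0 of them in the 14 comparisons, and 0 to 11 had an unadjusted p under 0.05. Their median log2 fold change for co-culture averaged over both treatments was -0.078 in Caco-2 and 0.17 in HepG2 cells, with 10 lower and 1 higher, and 1 lower and 7 higher, at an unadjusted p under 0.05. Of all genes 10.5% and 12.5% had such a p in these comparisons, so the counts of 11 of 92 and 8 of 90 were near the background. The smallest p-values were those of SLBP, which binds histone mRNA, -0.26 (SE 0.070, adjusted p = 0.31), and MYC, -0.37 (SE 0.11, adjusted p = 0.33), in Caco-2 cells and of RBL2, a retinoblastoma relative in the DREAM complex, -0.36 (SE 0.097, adjusted p = 0.18), and CDK4, 0.30 (SE 0.097, adjusted p = 0.26), in HepG2 cells. For FFAs averaged over both cultures they were RBL1, 0.26 (SE 0.097, adjusted p = 0.99), and TTK, -0.25 (SE 0.096, adjusted p = 0.99), in Caco-2 cells and CDKN2B, an inhibitor of CDK4 and CDK6, -0.76 (SE 0.23, adjusted p = 1.00), and LIN52, 0.30 (SE 0.14, adjusted p = 1.00), in HepG2 cells. CDKN1A, which encodes the kinase inhibitor p21, was at 29.8 ± 1.49 TPM (SD, n = 3) in mono-cultured and 42.1 ± 14.7 TPM (SD, n = 2) in co-cultured Caco-2 controls, and its averaged co-culture value was 0.47 (SE 0.19, adjusted p = 0.44). In HepG2 cells it was at 167 ± 56.8 and 186 ± 52.9 TPM (SD, n = 3 each), with 0.064 (SE 0.20, adjusted p = 0.92). For FFAs its averaged values were 0.27 (SE 0.19, adjusted p = 0.99) in Caco-2 cells and 0.11 (SE 0.20, adjusted p = 1.00) in HepG2 cells.

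Between the lines 69 of the 92 pathway genes passed limma, 58 higher in Caco-2 and 11 higher in HepG2 cells, a share near the background of all genes given above. Of the list of G2/M and mitosis genes 21 of 27 were higher in Caco-2 and 0 in HepG2 cells, and of the list of origin, fork and S phase genes 21 and 3 of 35. Of the list of D-type cyclins, kinases and RB and E2F factors the counts were 12 and 4 of 22, and of the 8 kinase inhibitors 4 and 4. Toward Caco-2 cells the called genes with the smallest p-values were CCND2, a D-type cyclin, 4.03 (SE 0.15, adjusted p = 1.8e-15), UBE2C, the ubiquitin enzyme of the anaphase-promoting complex, 2.62 (SE 0.13, adjusted p = 4.7e-13), CDKN1C, 2.46 (SE 0.15, adjusted p = 1.0e-11), CDKN2A, 1.65 (SE 0.10, adjusted p = 1.4e-11), and CDK2, 1.38 (SE 0.093, adjusted p = 3.9e-11). Toward HepG2 cells they were CDKN1A, -2.18 (SE 0.15, adjusted p = 4.5e-11), MYC, -1.40 (SE 0.13, adjusted p = 1.0e-08), CDKN2C, -1.81 (SE 0.18, adjusted p = 2.4e-08), CDKN2D, -1.06 (SE 0.11, adjusted p = 2.8e-08), and ORC2, a subunit of the origin recognition complex, -0.64 (SE 0.077, adjusted p = 2.3e-07). CDKN1A was thus at 40.0 ± 14.2 TPM (SD, n = 11) in Caco-2 cells and 182 ± 44.4 TPM (SD, n = 12) in HepG2 cells, without overlap between the lines.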

How the data were processed

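Caco-2 and HepG2 mRNA was amplified by SMART-seq and sequenced. According to the methods of the study and the submitters' processing notes, the authors removed reads that matched rRNA, tRNA or the mitochondrial genome with Bowtie2 2.1.0, aligned the rest to GRCh38 with STAR 2.7.1a (Ensembl 98) and quantified genes with RSEM 1.3.0, and they deposited 1 table of TPM values per library for 23 libraries. RSEM divides reads that match several places, so a member with a processed pseudogene may share reads with it. TPM keep no read counts, so depth is unknown and no counting interval was computed.

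From the deposited TPM, genes whose group mean reached 1 TPM in any group were tested on log2(TPM + 1), a scale that understates changes of low genes, with limma 3.58.1 in R 4.3.3 (empirical Bayes with a trend). The 4 groups of a line entered 1 fit, all 8 groups entered another for differences between the lines, and p-values were Benjamini-Hochberg adjusted over all genes of the fit (threshold 0.05). The criteria of the study (one-way analysis of variance, unadjusted p under 0.05, 1.2-fold) were applied as well. Other calculations used Python 3.11.15, numpy 2.4.6, pandas 2.3.3 and matplotlib 3.10.9. The code was tested on simulated data. Alternatives were a pseudocount of 0.1, no filter, a stricter minimum of 5 TPM, median-of-ratios scaling, quantile normalization, limma without the trend, fits of the 2 groups compared, a replicate block and each library left out. Gene coordinates are from GENCODE v44 and promoters from RefSeq. The members and lists were chosen with earlier results of these data known. Values in every library are given for 8 fixed genes and for the 2 members with the largest positive and negative fold changes of each averaged comparison within a line. Between the lines the 5 members with the largest difference each way are given in full. Of the pathway lists the called genes are named, up to 5 each way, otherwise the 2 with the smallest p, and CDKN1A always.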

Additional observations from a re-analysis of the deposited data

Results flagged for a closer look

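In 6 genes the co-cultured controls of the lines lay on opposite sides of the mono-cultured controls, every co-cultured Caco-2 library (2 libraries) below and every co-cultured HepG2 library above. Of the 12841 genes tested in both lines, 1.58% had this arrangement. The log2 fold changes of co-culture without FFAs were -0.35 in Caco-2 and 0.46 in HepG2 cells for E2F1, -0.53 and 0.47 for MCM10, -0.20 and 0.55 for MCM2, and -0.24 and 0.55 for MCM3. They were -0.30 and 0.64 for MCM7 and -0.31 and 0.46 for PCNA. The difference between the lines without FFAs was not tested on its own. The difference averaged over both treatments was, and none of the 6 passed limma as fitted here, where MCM3 came nearest (adjusted p = 0.055). Some of the 6 passed in other fits, which are given with the alternatives that follow.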

How the results depend on the processing

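Within a line 0 of the 39 genes passed limma in all 14 comparisons under each alternative, except MCM3 for co-culture averaged over both treatments in HepG2 cells (1 called) with the number of genes above 0 TPM as a covariate. That setting and the one with replicates 1 and 2 only were chosen after seeing the data. For the difference of the co-culture effect between the lines the count of 0 became 1 with a minimum of 5 TPM, 1 with the covariate, 6 with replicates 1 and 2 only and 3 with the replicate block (E2F1, MCM3 and MCM7 at adjusted p of 0.027, 0.030 and 0.049 by limma, where 2.09% of all genes passed), and was 0 to 2 with single libraries left out. By the criteria of the study the Caco-2 count of 0 became 1 with quantile normalization, 3 with the moderated F test and 4 with the replicate block (0 to 4 with single libraries left out), and the HepG2 count of 1 became 0 with Benjamini-Hochberg adjustment and 0 with the replicate block (0 to 3). The replicate block changed no other call of a member, and of RBL2, a pathway gene, it made a call in HepG2 cells for averaged co-culture (-0.36), as did the covariate (-0.38). Same-numbered libraries correlated at 0.032 to 0.63 in HepG2 cells and -0.11 to 0.34 in Caco-2 cells (deviations from group means, all tested genes). Their medians were 0.34 and 0.10, and 15 of 18 and 8 of 15 pairs were over 0.1. Because not every pair was, the numbers were not taken to pair the libraries. The fits without the replicate block therefore leave any shared part of same-numbered libraries in the spread. The replicate 3 libraries did deviate together, at 0.49 to 0.63 in HepG2 and 0.27 to 0.34 in Caco-2 cells, while libraries of different numbers had medians of -0.24 and -0.13.

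With replicates 1 and 2 only, the Caco-2 median for co-culture with FFAs moved to -0.35 (-0.32 to -0.13 with single libraries left out) and that of the interaction to -0.21 (-0.16 to 0.031). None of the following values passed. E2F2 for FFAs averaged in HepG2 cells turned to 0.097 with replicates 1 and 2 only and 0.091 with the covariate (-0.27 to 0.12 with single libraries left out). For averaged co-culture in HepG2 cells CCNB1 turned to 0.032 with replicates 1 and 2 only (-0.34 to 0.22), TOP2A to 0.019 with median-of-ratios scaling (-0.24 to 0.19) and CDKN1A ranged from -0.040 to 0.20. For co-culture without FFAs in HepG2 cells TOP2A turned to -0.026 with quantile normalization and -0.31 with the covariate (-0.15 to 0.22), and CCNB1 to -0.034 and -0.48 (-0.32 to 0.29). E2F1 for FFAs in mono-cultured HepG2 cells turned to 0.22 with replicates 1 and 2 only (-0.20 to 0.16). PCNA between the lines lost its call with the covariate (-0.30). The cause was not tested. Where a Caco-2 co-cultured control is left out, the lone library is assumed to vary like the other groups. TPM give no depth, and 2 or 3 libraries a group limit the precision.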
